A study of Homo sapiens with 27 samples.

Results

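SDF2L1 and 9 other genes of the endoplasmic reticulum (ER) stress response were followed through an inhibitor time course in uveal melanoma cells. They are 10 of the 61533 genes in the count table, and all 10 passed the minimum of 20 counts in every comparison. SDF2L1 was picked on its inhibitor effect, because that effect was negative at days 3 and 21 and positive at day 14, so its values at these days are given without a test. The other 9 genes (HSPA5, HSP90B1, DNAJB11, DNAJB9, PDIA4, CRELD2, MANF, HERPUD1 and XBP1) were chosen by name as ER chaperones, co-chaperones and stress response genes. They and the tests were chosen with earlier results of these data known. The cells were the line 92.1, an established GNAQ mutant uveal melanoma line. They were passaged either in DMSO or in the focal adhesion kinase inhibitor VS-4718 at 100 nM, abbreviated FAKi, with medium and agent renewed every 72 h. Messenger RNA was sequenced from DMSO cultures at day 0 and from both kinds of culture at days 3, 7, 14 and 21, with 3 replicates in each of the 9 groups. All 27 libraries came from this single line, and the study's methods name both plating in triplicate and 3 biological replicates. The labels do not say which of these a replicate number counts, so the p-values measure the spread between these samples.

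The ER folds secreted and membrane proteins, and an excess of unfolded protein there switches on the unfolded protein response. Its 3 sensors are IRE1 (ERN1), which splices XBP1 mRNA, ATF6, which is cut to release a transcription factor, and PERK (EIF2AK3), which slows translation and favours the factor ATF4. ATF6 and spliced XBP1 raise the genes of ER chaperones, folding enzymes and ER-associated degradation, while ATF4 raises genes of amino acid supply and cell death. Melanocytic cells make large amounts of glycoprotein in this compartment, among them the melanosome proteins PMEL, TYR and TYRP1.

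Promoters of ER chaperone genes are known for the ER stress response element, in which CCAAT is followed after 9 bases of any kind by CCACG. A second form of the element has ATTGG, 1 base of any kind and then CCACG. Both were searched on both strands of the RefSeq promoter windows on GRCh38.p14, which run from 250 bases before to 50 bases after the start of each gene, and all 10 genes had such a window. The first form was found in HSPA5, HSP90B1, CRELD2 and XBP1, and in 27 of 35116 promoters (0.0769%). The second form was found in SDF2L1 and HERPUD1, and in 19 promoters (0.0541%). The 6 genes with either form are shown because they divide the set by a feature that expression did not choose. Capitals mark the fixed letters of the element, which read as CGTGG and ATTGG, or CGTGG and CCAAT for the second form, where it lies on the strand opposite to the gene.
HSPA5 (chr9:125241376-125241424, minus strand): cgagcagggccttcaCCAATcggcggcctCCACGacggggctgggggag
HSP90B1, nearer element (chr12:103930306-103930354, plus strand): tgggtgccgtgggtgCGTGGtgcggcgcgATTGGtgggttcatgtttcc
HSP90B1, farther element (chr12:103930201-103930249, plus strand): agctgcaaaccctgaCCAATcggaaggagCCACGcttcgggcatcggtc
CRELD2 (chr22:49918539-49918587, plus strand): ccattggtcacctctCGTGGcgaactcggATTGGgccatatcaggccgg
XBP1 (chr22:28800588-28800636, minus strand): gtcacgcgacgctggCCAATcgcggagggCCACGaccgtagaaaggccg
SDF2L1, second form (chr22:21642099-21642139, plus strand): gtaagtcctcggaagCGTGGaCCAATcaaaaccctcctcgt
HERPUD1, second form (chr16:56932010-56932050, plus strand): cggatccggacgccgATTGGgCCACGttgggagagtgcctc
The element of XBP1 lay 52 to 34 bases before the RefSeq start, that of HSPA5 66 to 48, that of CRELD2 80 to 62, that of HERPUD1 117 to 107 and that of SDF2L1 188 to 178. HSP90B1 held a pair, at 89 to 71 and at 194 to 176 bases before the start. DNAJB11, DNAJB9, PDIA4 and MANF held neither form in this window. The core TGACGTG, which spliced XBP1 is known to bind, was in 692 promoters (1.97%) and in 0 of the 10 genes. A match describes letters in a window and is not a measurement of binding.

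Total counts per library were between 12161994 and 43651551, and SDF2L1 had 92 to 1563 counts. Of 7 melanocyte genes, PMEL, TYRP1, MLANA, SOX10, TYR and MITF were at 128 CPM or above in every library and DCT was at 2.5 to 28.5 CPM (a gene's count relative to the library's total, TMM-scaled over the 27 libraries). Of 13 markers of other cell types, CD68, COL1A1 and LUM alone had a median above 1 CPM, KRT5 was at 0 in every library, and PTPRC, CD3E, EPCAM and DCN were at 0 in most. The sum of the 7 melanocyte genes was 9360 to 10100 CPM in DMSO and 12200 to 12700 CPM in FAKi at day 14, and 11700 to 14000 CPM and 14900 to 15300 CPM at day 21. That of the 13 other markers was 58.2 to 67.5 CPM and 54.5 to 56 CPM at day 14, and 67.1 to 81.8 CPM and 31.1 to 34.9 CPM at day 21. This second sum was mostly CD68, whose median over the 27 libraries was 70.8 CPM, beside 5.4 for COL1A1 and 4.97 for LUM. The part of both sums in the results was not tested. PTK2, which encodes the inhibited kinase, was at 139.9 ± 18.5 CPM (SD, n = 27). By the root mean square difference of log2 CPM over 16981 genes, 9 of the 27 libraries had their nearest neighbour in another group. The 3 farthest from their own group on average stood apart from it most. FAKi day 7 replicate 1 lay 0.215 from FAKi day 14 replicate 1 and 0.724 from its own group. DMSO day 21 replicate 3 lay 0.324 from DMSO day 3 replicate 3 and 0.744 from its own group. DMSO day 3 replicate 1 lay 0.266 from DMSO day 0 replicate 3 and 0.692 from its own group. The column heading of DMSO day 21 replicate 3 has an extra digit in the day, while its title gives day 21. Whether any of these 3 libraries carries an exchanged label was not tested, and an exchange would alter the values at days 3, 7 and 21. Calls that change without 1 of them are given both ways.

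The 10 genes covered a wide range of mean level. Per kilobase of counted transcript, HSP90B1, the ER member of the HSP90 family (chromosome 12, 103930356 to 103947922 on hg38), had a mean of 241 CPM and HSPA5, the Hsp70 chaperone BiP that holds the stress sensors inactive (chromosome 9, 125234860 to 125241344), had 109 CPM. The transcription factor XBP1 (chromosome 22, 28794555 to 28800597) had 64.7 CPM per kilobase, and its count does not separate spliced from unspliced mRNA. HERPUD1, a membrane protein of ER-associated degradation (chromosome 16, 56932142 to 56944864), had 49.6 CPM per kilobase, and the disulphide isomerase PDIA4 (chromosome 7, 149003068 to 149028662) had 40.9. The secreted stress protein MANF (chromosome 3, 51385409 to 51389344), CRELD2, a cysteine-rich ER protein (chromosome 22, 49918635 to 49927540), and the BiP co-chaperone DNAJB11 (chromosome 3, 186570700 to 186585793) had 26.1, 18.8 and 18.1 CPM per kilobase. SDF2L1, a partner of DNAJB11 in the ER chaperone complex (chromosome 22, 21642302 to 21644299), had 17.1 CPM per kilobase, and DNAJB9, a BiP co-chaperone that restrains IRE1 (chromosome 7, 108569874 to 108574850), had 5.93. Of the counted transcript models, those of HSPA5, HSP90B1 and DNAJB11 are typed as retained intron and that of MANF as lacking a defined coding sequence in GENCODE 44. The values per kilobase and their order rest on the lengths of these models, 5213 bases for DNAJB11. Without division by length, mean CPM was 94.5 for DNAJB11, 39.3 for MANF and 29.2 for CRELD2. Exons of HSP90B1 and DNAJB11 also overlap other genes over 7.23% and 9.48% of their bases on the opposite strand, and 3.36% and 8.62% on their own strand, so their counts may hold reads of those genes.

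SDF2L1 had the widest range among the 10 genes, with 8.21-fold between its lowest and highest library. These 2 libraries are from days 14 and 21, which were used to choose the gene, so its place in this ranking is a description. In DMSO at day 0 its level was 8.13, 8.68 and 7.75 CPM in replicates 1, 2 and 3. At day 3 it was 10.3, 15.5 and 22.3 CPM in DMSO and 6.27, 8.38 and 6.26 CPM in FAKi, so the lowest DMSO library was above the highest FAKi library. At day 14 the order was the other way, with 6.69, 5.45 and 6.51 CPM in DMSO and 14.9, 16.5 and 12.5 CPM in FAKi. Again the groups did not overlap. At day 21 it was 44.3, 44.7 and 19.7 CPM in DMSO and 20.5, 17.7 and 12.9 CPM in FAKi, and here DMSO replicate 3, a library whose profile stood apart, fell inside the FAKi range.

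**Figure D1:**
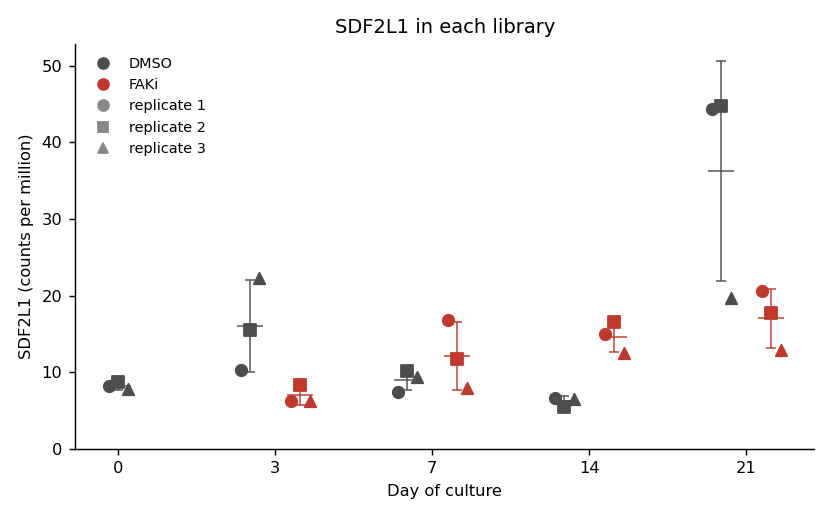
SDF2L1 in CPM (vertical axis, linear) against the day of culture (horizontal axis), with DMSO in grey, FAKi in red, a symbol shape for each replicate, and a bar with whiskers for the mean ± SD of 3 libraries. FAKi lies below DMSO at day 3, above it at day 14, and below 2 of the 3 DMSO libraries at day 21, where DMSO reaches 44.7 CPM.

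The fitted log2 differences of FAKi against DMSO, whose signs the choice of the gene fixed, were -1.18 at day 3, 1.24 at day 14 and -1.06 at day 21, with standard errors of 0.28, 0.18 and 0.31. Without DMSO day 3 replicate 1 the day 3 value was -1.42, and without DMSO day 3 replicate 3 it was -0.87. Without DMSO day 21 replicate 3 the day 21 value was -1.36. Day 7 was not used in the choice, and there SDF2L1 was at 7.47, 10.1 and 9.31 CPM in DMSO and 16.8, 11.7 and 7.93 CPM in FAKi. The difference of 0.45 did not pass (95% interval -0.07 to 0.97, adjusted p = 0.666, edgeR's quasi-likelihood F test, Benjamini-Hochberg adjusted over all genes), and without FAKi day 7 replicate 1, the highest of the 6 libraries, it was 0.16 (adjusted p = 0.752). DMSO at day 7 differed from DMSO at day 0 by 0.11 (95% interval -0.15 to 0.37, adjusted p = 0.754, edgeR). Ordered by mean, the groups ran from DMSO at day 21 (36.2 ± 14.3 CPM, SD, n = 3) through FAKi at day 21 (17.1 ± 3.87), DMSO at day 3 (16.04 ± 6.01), FAKi at day 14 (14.7 ± 2.05), FAKi at day 7 (12.1 ± 4.45), DMSO at day 7 (8.96 ± 1.35), DMSO at day 0 (8.19 ± 0.47) and FAKi at day 3 (6.97 ± 1.22) to DMSO at day 14 (6.22 ± 0.67). Every pair of neighbours in this order overlapped.

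Day 14 was the day at which most of the other 9 genes differed between treatments. Of the 9, 5 were higher in FAKi and 1 was lower at an adjusted p of at most 0.05 (edgeR quasi-likelihood test), against 12.4% of all genes tested in either direction. The 9 were chosen with earlier results of these data known, so this count beside that share is a description. None of the 9 also exceeded an absolute log2 fold change of 1, a threshold that 1.66% of all genes met together with the adjusted p. A gene that meets both is named called below. The libraries of both treatments did not overlap for 7 of the 9, with 6 higher and 1 lower in FAKi, where 29% of all genes had this separation. The median log2 difference of the 9 was 0.31, and that of all genes was -0.01. In a bulk sample, fewer cells of a kind and less RNA per cell cannot be told apart.

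HSPA5 was at 452.6, 456.9 and 393 CPM in DMSO and at 646.2, 635.7 and 660.5 CPM in FAKi at day 14. The FAKi libraries lay together above the 3 DMSO libraries, and the log2 difference was 0.58 ± 0.09 (SE; adjusted p = 0.000252, edgeR). HSPA5 had started at 616.8 to 690.8 CPM at day 0. All 3 FAKi libraries of day 14 were inside that starting range, and the 3 DMSO libraries of day 14 were below it. PDIA4 was at 107.3, 85.9 and 99.7 CPM in DMSO and at 172.2, 166.6 and 163 CPM in FAKi. Its groups were apart by more than their own width, with a log2 difference of 0.78 ± 0.10 (adjusted p = 2.93e-05, edgeR). CRELD2 was at 22.5, 22.5 and 18.5 CPM in DMSO and at 39.6, 38.9 and 32.0 CPM in FAKi. It had the largest difference of the 9 genes at this day, 0.80 ± 0.13 (adjusted p = 0.000248, edgeR). MANF was at 57.3, 47.7 and 45.5 CPM in DMSO and at 79.02, 73.3 and 81.5 CPM in FAKi, a log2 difference of 0.63 ± 0.11 (adjusted p = 0.000479, edgeR). These 4 genes passed in each of the 6 fits that left out 1 library. In 1 fit of all 27 libraries, where 5.51% of all genes passed, HSPA5, PDIA4 and CRELD2 passed, while MANF (adjusted p = 0.15), HSP90B1 (0.238) and HERPUD1 (0.0964) did not in edgeR. HSP90B1 was at 742.1, 888.4 and 845.7 CPM in DMSO and at 1037, 981.4 and 1064 CPM in FAKi, and its difference of 0.31 ± 0.09 (adjusted p = 0.0296, edgeR) passed in 2 of those 6 fits. It was lost without DMSO replicate 3 (adjusted p = 0.068, edgeR) and without FAKi replicate 1, 2 or 3 (adjusted p from 0.0985 to 0.13, edgeR). DNAJB11, at 106, 110 and 103.7 CPM in DMSO and at 132.5, 127.2 and 129.7 CPM in FAKi, did not overlap between treatments, but its difference of 0.28 ± 0.09 had an adjusted p of 0.0543 (edgeR), and of 0.05 without DMSO replicate 1 (edgeR).

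The degradation gene HERPUD1 went the other way. It was at 93.7, 77.8 and 87.3 CPM in DMSO and at 53.2, 55.8 and 57.0 CPM in FAKi at day 14. All FAKi libraries were below all DMSO libraries, and the log2 difference was -0.64 ± 0.10 (adjusted p = 0.000267, edgeR), which passed in each of the 6 fits without 1 library. XBP1 was at 57.2, 56.0 and 45.4 CPM in DMSO and at 43.7, 41.1 and 45.8 CPM in FAKi, and DNAJB9 was at 11.01, 9.83 and 9.14 CPM against 9.85, 9.68 and 11.5 CPM. Both overlapped between treatments, with differences of -0.28 ± 0.11 (adjusted p = 0.113, edgeR) and 0.05 ± 0.17 (adjusted p = 0.916, edgeR). Without DMSO replicate 3, XBP1 passed at -0.38 (adjusted p = 0.0442, edgeR).

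**Figure D2:**
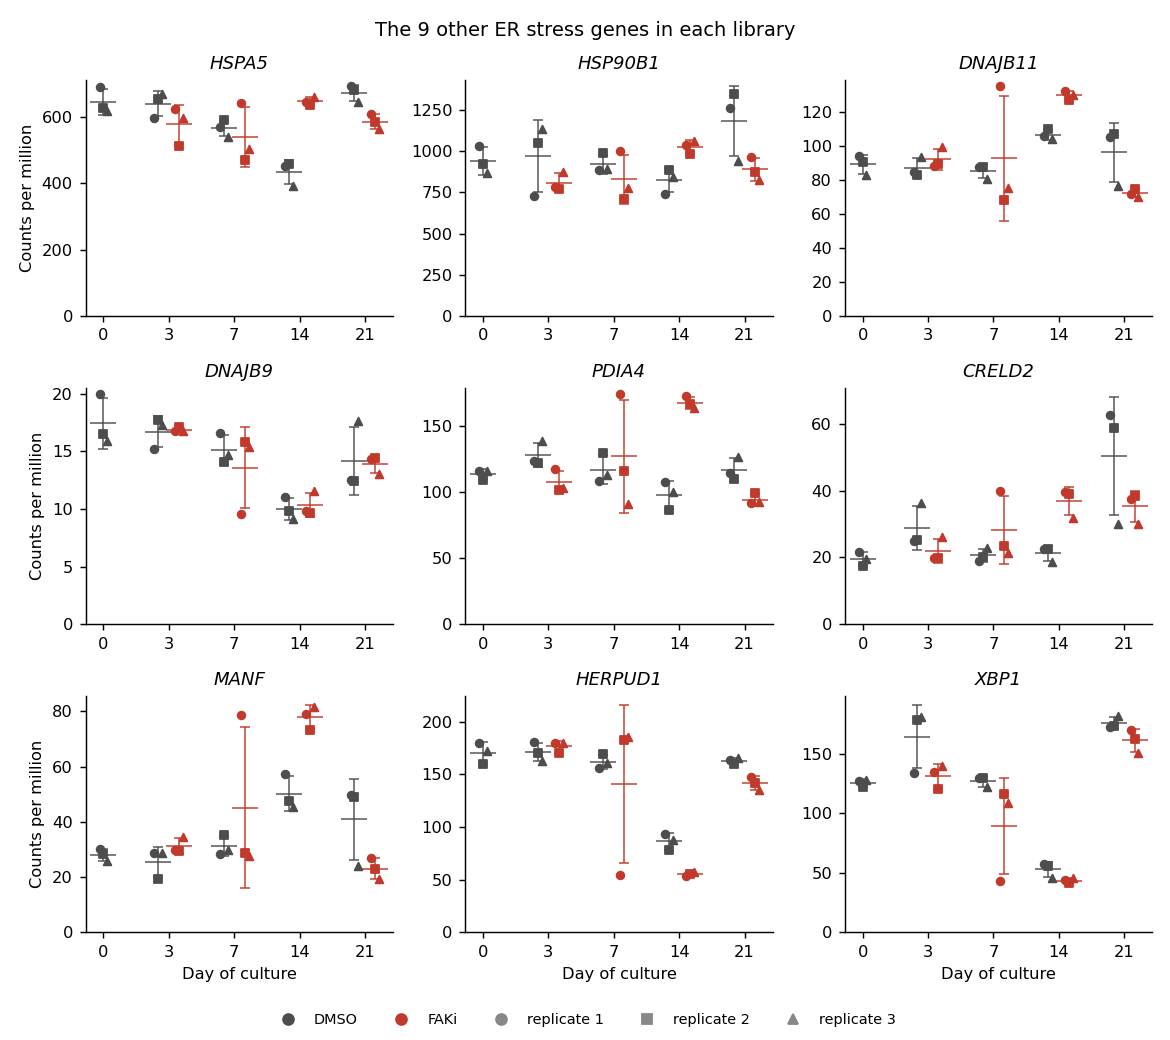
CPM (vertical axis, linear, from 0) of the 9 other genes against the day of culture, with DMSO in grey, FAKi in red, a symbol shape for each replicate and the mean ± SD of 3 libraries. At day 14 HERPUD1, XBP1 and DNAJB9 are low in both treatments and MANF and DNAJB11 are high, and FAKi day 7 replicate 1 sits at the day 14 FAKi levels, with MANF at 78.7 and HERPUD1 at 54.7 CPM.

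At day 3, 0 of the 9 genes were called or passed the adjusted p, as for all genes, of which 0% passed in edgeR. None of the 9 had an unadjusted p under 0.05, against 5442 of 22846 genes, and DESeq2, which called 745 genes, called none of the 9. MANF was higher in FAKi without overlap, at 29.7, 29.5 and 34.7 CPM against 28.7, 19.5 and 28.7 CPM. PDIA4 was lower without overlap, at 117.1, 101.5 and 103.2 CPM against 122.9, 121.5 and 138 CPM. These 2 of 9 stood beside 31% of all genes without overlap. Without DMSO day 3 replicate 1, 2 of the 9 genes passed the adjusted p (32.7% of all genes), namely HSP90B1 with a log2 difference of -0.41 (adjusted p = 0.0349, edgeR) and XBP1 with -0.43 (adjusted p = 0.0289, edgeR).

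At day 7, 0 of the 9 genes passed either rule in edgeR, against 0.0269% of all genes with both thresholds and 0.0269% with the adjusted p alone. None of the 9 passed in DESeq2 (104 genes called), and none had an unadjusted p under 0.05. XBP1 alone did not overlap, at 42.85, 116.2 and 108.9 CPM in FAKi and 129.9, 129.8 and 121.8 CPM in DMSO, against 16.8% of all genes. The spread within FAKi came from replicate 1. In that library HERPUD1 was at 54.7 CPM, beside 182.8 and 185.6 CPM in the other FAKi libraries, and MANF was at 78.7 CPM, beside 28.8 and 27.7 CPM. DNAJB11 was at 134.9 CPM there, beside 68.2 and 75.04 CPM, and DNAJB9 at 9.545 CPM, beside 15.9 and 15.4 CPM. Over the 10 genes this library lay 0.0543 from FAKi day 14 replicate 2 and 1.04 from its own group. Without it, the log2 difference of MANF moved from 0.54 to -0.13, that of HERPUD1 from -0.19 to 0.20 and that of DNAJB11 from 0.13 to -0.24, and none of the 9 passed (lowest adjusted p = 0.156, HSP90B1, edgeR).

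At day 21 the differences pointed downward. The median of the 9 genes was -0.29 (all genes 0.02 in log2), and 5 of the 9 were lower in FAKi without overlap, where 35.3% of all genes had no overlap. None was called or passed the adjusted p in edgeR, against 5.28% and 11.6% of all genes, 3 had an unadjusted p under 0.05, and DESeq2 called none, with 1 past its adjusted p. MANF was at 49.8, 49.0 and 24.0 CPM in DMSO and at 26.8, 22.9 and 19.5 CPM in FAKi. Replicates 1 and 2 of DMSO were above every FAKi library, and replicate 3 was within their range. The log2 difference of MANF was -0.80 ± 0.27 (adjusted p = 0.0800, edgeR), and without DMSO replicate 3 it was -1.06 (adjusted p = 9.91e-07, edgeR). CRELD2 was at 62.6, 58.8 and 30.1 CPM in DMSO and at 37.4, 38.4 and 30.1 CPM in FAKi, and DNAJB11 was at 105.3, 107.2 and 76.2 CPM and at 71.4, 74.4 and 70.01 CPM. Without DMSO replicate 3 their log2 differences were -0.75 (adjusted p = 2.07e-05, edgeR) and -0.53 (adjusted p = 0.000155, edgeR), and HSP90B1 also passed, at -0.52 (adjusted p = 0.000504, edgeR). These 4 of 9 stood beside 48.5% of all genes. Replicate numbers were taken to pair the libraries at this day, because same-numbered libraries deviated alike from their group means (r of 0.443, 0.128 and 0.658 over genes). The last r includes DMSO replicate 3, which stood apart, and the labels do not say what a replicate number counts. With the replicate block 3 of the 9 passed the adjusted p, against 29.9% of all genes, MANF at -0.74 (adjusted p = 0.00507, edgeR), DNAJB11 at -0.38 (adjusted p = 0.0405, edgeR) and CRELD2 at -0.43 (adjusted p = 0.0476, edgeR).

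**Figure D3:**
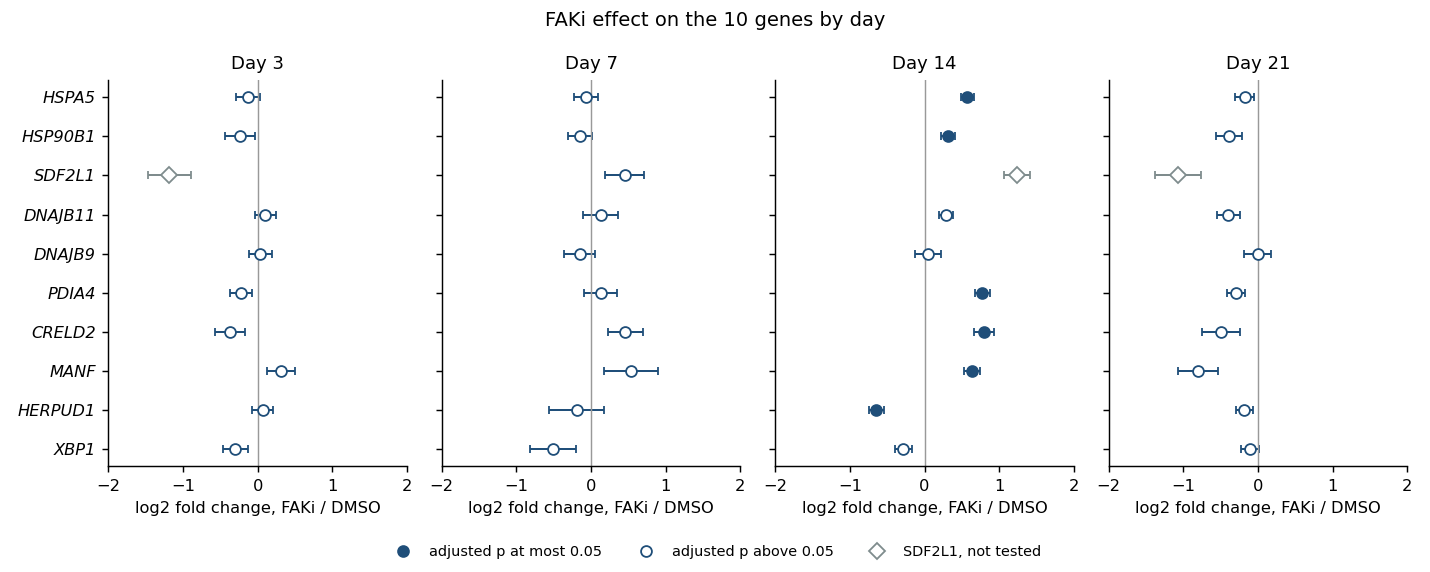
Fitted log2 fold change of FAKi over DMSO (horizontal axis) for each of the 10 genes at days 3, 7, 14 and 21, with whiskers of 1 standard error. Filled points had an adjusted p of at most 0.05 in edgeR, open points did not, and diamonds mark SDF2L1 at the days used to choose it, at -1.18, 1.24 and -1.06. Filled points appear in the day 14 panel, with HERPUD1 on the negative side.

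Whether the FAKi effect differed between days was tested as an interaction over the 12 libraries of a pair of days. Both tests use the day 14 libraries and are therefore not independent of each other or of the day 14 comparison. From day 3 to day 14, 2 of the 9 genes were called (4.33% of all genes) and 4 passed the adjusted p (8.54%). The called genes were PDIA4, whose effect rose by 1.01 ± 0.17 on the log2 scale (adjusted p = 0.00329, edgeR), and CRELD2, whose effect rose by 1.17 ± 0.25 (adjusted p = 0.00969, edgeR). HSPA5 rose by 0.71 (adjusted p = 0.0208, edgeR) and HERPUD1 had a change of -0.70 (adjusted p = 0.0161, edgeR), and these passed in 7 and 9 of the 12 fits that left out 1 library, respectively. HSPA5 was lost without FAKi day 3 replicate 2 or 3, DMSO day 14 replicate 3 or FAKi day 14 replicate 1 or 2 (adjusted p from 0.0518 to 0.0746, edgeR), and HERPUD1 without FAKi day 3 replicate 3 or FAKi day 14 replicate 1 or 2 (adjusted p from 0.0522 to 0.056, edgeR). PDIA4 and CRELD2 passed the adjusted p in all 12. Without DMSO day 3 replicate 3 neither exceeded the fold threshold (0.95 and 0.97). Without DMSO day 3 replicate 1 HSP90B1 also passed (adjusted p = 0.0012, edgeR), where 22.8% of all genes did. The corresponding values of SDF2L1, given as a description, were 2.42 here and -2.33 from day 14 to day 21.

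From day 14 to day 21, 3 of the 9 were called (7.43% of all genes) and 6 passed the adjusted p (12.7%), all toward a lower FAKi effect. MANF had a change of -1.47 ± 0.30 (adjusted p = 0.00538, edgeR), CRELD2 of -1.32 ± 0.30 (adjusted p = 0.00967, edgeR) and PDIA4 of -1.09 ± 0.16 (adjusted p = 0.000573, edgeR). HSPA5 had -0.77 (adjusted p = 0.00463, edgeR), HSP90B1 -0.73 (adjusted p = 0.0245, edgeR) and DNAJB11 -0.70 (adjusted p = 0.0179, edgeR). PDIA4, CRELD2, MANF and HSPA5 passed in all 12 fits without 1 library, DNAJB11 in 9 and HSP90B1 in 5. DNAJB11 was lost without DMSO day 21 replicate 1 or 2 or FAKi day 21 replicate 3 (adjusted p from 0.0514 to 0.0527, edgeR). HSP90B1 was lost when replicate 1 of DMSO or replicate 1 or 3 of FAKi was left out at day 14, or replicate 1 or 2 of DMSO or 2 or 3 of FAKi at day 21 (adjusted p from 0.0538 to 0.073, edgeR). HERPUD1 had a change in the positive direction, 0.44 (adjusted p = 0.0721, edgeR), which passed without DMSO day 21 replicate 3 (adjusted p = 0.0173, edgeR; 29.5% of all genes passed), and XBP1 and DNAJB9 had 0.16 (adjusted p = 0.581, edgeR) and -0.07 (adjusted p = 0.881, edgeR).

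The control cultures moved over time as well. These comparisons share the 3 day 0 libraries, and their DMSO libraries also enter the comparisons with FAKi. At day 14, DMSO had 1 of the 9 genes called against day 0 (6.07% of all genes) and 6 past the adjusted p (28.3%), 2 higher and 4 lower. XBP1 was at 127.5, 122.1 and 128.1 CPM at day 0, and its log2 difference at day 14 was -1.26 ± 0.10 (adjusted p = 9.75e-07, edgeR). HERPUD1, at 179.5, 159.7 and 172.5 CPM at day 0, differed by -0.99 ± 0.10 (adjusted p = 5.65e-06, edgeR). DNAJB9 was at 19.96, 16.5 and 15.9 CPM at day 0 and differed by -0.81 ± 0.14 (adjusted p = 0.000668, edgeR). No day 14 library of these 3 genes, in either treatment, reached its lowest level at day 0. HSPA5 fell by 0.58 on the log2 scale (adjusted p = 0.000358, edgeR), MANF rose by 0.83 (adjusted p = 8.75e-05, edgeR) and DNAJB11 rose by 0.25 (adjusted p = 0.0443, edgeR). DNAJB11 was lost without any 1 of the day 0 libraries or without day 14 replicate 2 or 3 (adjusted p from 0.0555 to 0.203, edgeR). SDF2L1 differed by -0.40, a value the choice of the gene used in part. The FAKi libraries of day 14 were not tested against day 0. For HSPA5 they lay within the day 0 range. For PDIA4, CRELD2, MANF and DNAJB11 they lay above every day 0 library, and for HSP90B1 they overlapped the day 0 range.

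At the other days fewer of the 9 differed from day 0 in DMSO. None was called or passed at day 3 in edgeR, where 0% of all genes passed, although CRELD2 had an unadjusted p under 0.05, as had 2242 genes. None passed at day 7 in edgeR, against 0.699% of all genes called and 4.94% past the adjusted p, and 2 of the 9 had an unadjusted p under 0.05. DESeq2 called none of the 9 at either day, although HSPA5 passed its adjusted p at day 7 (-0.21, adjusted p = 0.0467). Without DMSO day 3 replicate 1, CRELD2 (0.62, adjusted p = 0.0277) and XBP1 (0.48, adjusted p = 0.0157) passed at day 3 in edgeR. At day 21, 1 of the 9 was called and 2 passed the adjusted p, both higher, against 23.3% and 44.9% of all genes. CRELD2 differed by 1.36 ± 0.26 (adjusted p = 0.00556, edgeR) and XBP1 by 0.47 ± 0.11 (adjusted p = 0.0111, edgeR). XBP1 was lost without any 1 of the day 0 libraries (adjusted p from 0.0502 to 0.0677, edgeR). The value of SDF2L1 was 2.14. Without DMSO day 21 replicate 3 it was 2.44, and 6 of the 9 passed the adjusted p, against 69.7% of all genes. The 4 added were MANF (adjusted p = 3.04e-11, edgeR), HSP90B1 (adjusted p = 2.74e-07, edgeR) and DNAJB11 (adjusted p = 0.00405, edgeR), which were higher, and DNAJB9 (adjusted p = 0.000361, edgeR), which was lower.

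Across the 27 libraries the genes formed patterns of their own. As a description over libraries that share treatment and day, Pearson's r of log2 CPM was 0.91 between HERPUD1 and XBP1, 0.86 between HERPUD1 and DNAJB9 and 0.92 between MANF and DNAJB11. HERPUD1 and MANF ran opposite to each other (r = -0.84). HSPA5 and HSP90B1 had r = 0.68, and HSPA5 had r of 0.07 with HERPUD1. HSPA5, HSP90B1, HERPUD1 and XBP1 held a form of the ER stress response element, while DNAJB9, MANF and DNAJB11 held neither. With other genes that held a form, HERPUD1 had r of -0.17 (HSP90B1), -0.28 (CRELD2) and -0.03 (SDF2L1). A part of the element in these patterns was not tested.

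The rest of the pathway was followed with 6 lists of other genes. Of 23 other ER chaperones and folding enzymes, 6 were higher and 2 lower in FAKi at day 14 at an adjusted p of at most 0.05, against 12.4% of all genes in either direction. The other 15 did not pass, 0 were called, and the list's median was 0.16 against -0.01 for all genes. The higher genes included the lectin chaperone CALR (0.82, adjusted p = 3.59e-06, edgeR), at 859 ± 72.6 CPM in DMSO and 1520 ± 79.6 CPM in FAKi (SD, n = 3), and the disulphide isomerase PDIA6 (0.54, adjusted p = 0.000540, edgeR). Between days 14 and 21 the FAKi effect was called as having dropped for 3 of the 23, beside 7.43% of all genes called in either direction. They were CALR (-1.43), PDIA6 (-1.15) and the prolyl isomerase PPIB (-1.22), with adjusted p of 0.000293, 0.000266 and 0.00855 in edgeR. From day 3 to day 14 the oxidase ERO1B alone of the 23 was called, with a negative change (-1.16, adjusted p = 0.0118, edgeR), beside 4.33% of all genes. Of 16 translocon and signal peptide genes, 1 was called at day 21, beside 5.28% of all genes. It was SEC61G, a subunit of the translocation channel, at -1.42 (adjusted p = 0.0199, edgeR). Past the adjusted p, 6 of the 16 were lower, against 11.6% of all genes in either direction. Of 15 degradation genes 2 were higher at day 14 past the adjusted p, a share near the 12.4% of all genes, and 0 were called in the FAKi comparisons of any day.

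Most genes listed as PERK-ATF4 targets were lower in FAKi at day 14. The activity of PERK was not measured, and its part in these differences was not tested. Of 10 PERK-ATF4 target genes, 8 were called lower, 9 were lower past the adjusted p and 1, VLDLR, was higher (0.40, adjusted p = 0.0179, edgeR). Among all genes 1.66% were called and 12.4% passed the adjusted p, in either direction. The list's median was -1.39, against -0.01 for all genes. ASNS, the asparagine synthetase, was at 168 ± 9.68 CPM in DMSO and at 12.3 ± 1.78 CPM in FAKi (SD, n = 3), a log2 difference of -3.78 ± 0.12 (SE; adjusted p = 1.51e-14, edgeR). CHAC1, which breaks down glutathione, differed by -2.48 (adjusted p = 1.12e-10, edgeR), and DDIT4, an inhibitor of mTORC1 signaling, by -2.25 (adjusted p = 6.99e-10, edgeR). ATF4 itself was at 978 ± 58.9 CPM in DMSO and at 292 ± 8.92 CPM in FAKi, a difference of -1.74 (adjusted p = 6.26e-11, edgeR). In fits that left out 1 library, 7 or 8 of the 10 were called lower. At days 3 and 7 none of the 10 passed the adjusted p, beside 0% and 0.0269% of all genes. At day 21 ASNS alone was called (-1.11, adjusted p = 0.00478, edgeR), beside 5.28% of all genes. Past the adjusted p, 3 of the 10 were lower at day 21, beside 11.6% of all genes in either direction. The FAKi effect on 9 of the 10 was called as lower from day 3 to day 14, beside 4.33% of all genes. From day 14 to day 21 it was called as higher for 9 and as lower for 1, beside 7.43%. In fits that left out 1 library, the 9 of each change became 7 to 9 and 6 to 9, respectively. DMSO alone had 4 of the 10 called lower at day 14 against day 0, beside 6.07% of all genes, with TRIB3 at -1.97 (adjusted p = 1.65e-08, edgeR).

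**Figure D4:**
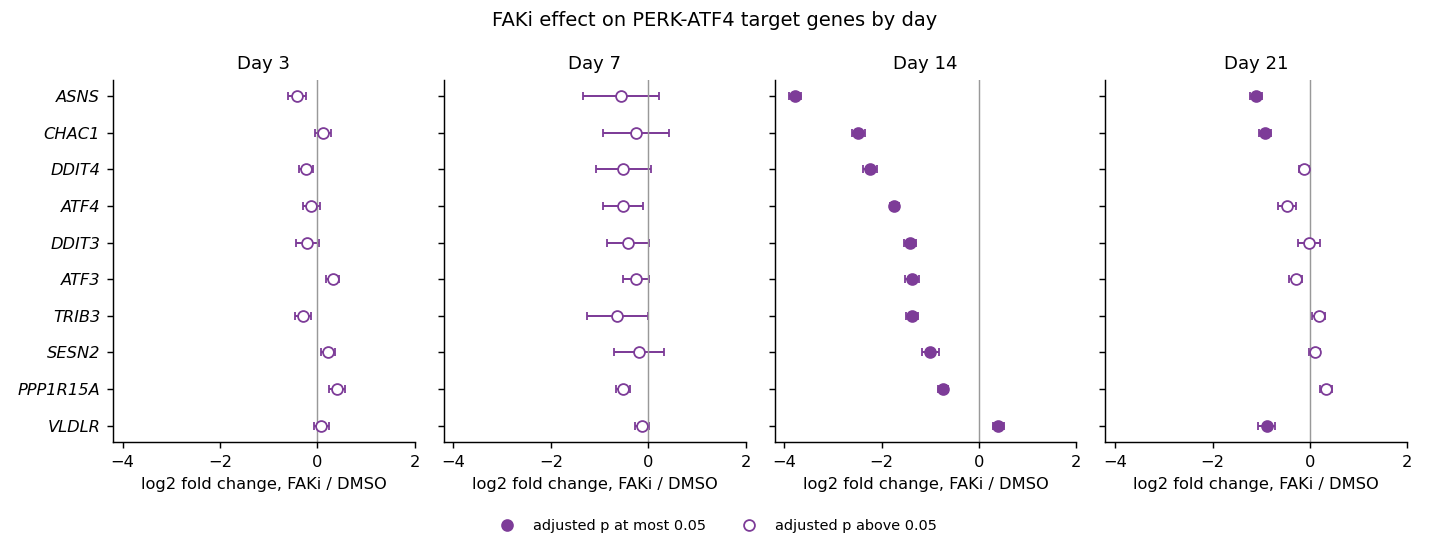
Fitted log2 fold change of FAKi over DMSO (horizontal axis) of the 10 PERK-ATF4 target genes at days 3, 7, 14 and 21, with whiskers of 1 standard error and filled points for an adjusted p of at most 0.05 in edgeR. At day 14 9 genes lie below 0, from ASNS at -3.78 to PPP1R15A at -0.74, and VLDLR lies above 0.

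The sensors and the cytosolic chaperones gave fewer calls than the PERK-ATF4 targets in FAKi at day 14. Of 6 ER stress sensor genes 1 passed the adjusted p in FAKi at day 14, EIF2AK3, which encodes PERK, at 0.53 (adjusted p = 0.0277, edgeR), beside 12.4% of all genes. ERN1, which encodes IRE1, was called lower in DMSO against day 0 at day 14 (-1.14, adjusted p = 3.77e-05, edgeR) and at day 21 (-1.16, adjusted p = 0.0181, edgeR). In these comparisons 1 and 2 of the 6 sensors were called, all lower, beside 6.07% and 23.3% of all genes. Past the adjusted p, 4 and 5 of the 6 were lower, beside 28.3% and 44.9% of all genes in either direction. Of 12 cytosolic heat shock genes 2 were higher past the adjusted p in FAKi at day 14, also a share near that of all genes, and 0 were called. In DMSO at day 14, 2 of the 12 were called higher than at day 0, HSPE1 (1.14, adjusted p = 6.54e-06, edgeR) and HSPA1B (1.06, adjusted p = 1.63e-06, edgeR), beside 6.07% of all genes. Past the adjusted p, 8 of the 12 were higher there, beside 28.3% of all genes in either direction.

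The genes whose pattern over the 27 libraries was most like that of SDF2L1 were not the ER genes. Among 16980 genes with a mean of at least 1 CPM, the highest Pearson r included 0.96 for ATP6V0D1, a subunit of the vacuolar proton pump, 0.96 for TSEN34, a tRNA splicing subunit, and 0.945 to 0.954 for MTFP1, ENSG00000267458, ARAP1-AS1, PPIF, ENSG00000249590, BAD and ENSG00000265168. CRELD2 was the closest of the 9, at rank 145 (r = 0.90), followed by HSP90B1 (r = 0.73) and HSPA5 (r = 0.59). MANF (0.13), DNAJB11 (0.09), HERPUD1 (-0.03) and DNAJB9 (-0.10) had r near 0, and 0 of the 9 were among the 100 most alike genes. The 100 had a median transcript GC content of 58.3% and a median length of 1746.5 bases, against 48.4% and 2911 bases for all genes of this level, and SDF2L1 itself has 65.1% and 820 bases. These r share library depth, base composition and treatment.

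GC content and length moved with the SDF2L1 values. With offsets that take out each library's trend in transcript GC content and length, its FAKi effect was -0.68 at day 3, 1.104 at day 14 and -0.71 at day 21, and the DMSO difference from day 0 at day 21 was 1.24 in place of 2.14. After this correction DNAJB11 (r = 0.80), CRELD2 (0.79), HSP90B1 (0.76) and HSPA5 (0.71) had the highest r of the 9 with SDF2L1, lower than before for CRELD2 and higher for the other 3, and HERPUD1 was at -0.29. The day 14 differences of HSPA5, PDIA4, CRELD2, MANF and HERPUD1 were 0.62, 0.71, 0.69, 0.61 and -0.65 with the correction. DNAJB11 (0.40, adjusted p = 0.00155, edgeR) and XBP1 (-0.30, adjusted p = 0.0462, edgeR) then also passed, so that 8 of the 9 did, against 13.6% of all genes. In the change from day 3 to day 14, PDIA4 (0.86, adjusted p = 0.0036, edgeR) and CRELD2 (0.72, adjusted p = 0.0416, edgeR) fell under the fold threshold. HSPA5 exceeded it there (1.01, adjusted p = 0.00707, edgeR), and HSP90B1 then passed the adjusted p (0.91, adjusted p = 0.0343, edgeR). CRELD2 also fell under the fold threshold in the change from day 14 to day 21 (-0.98, adjusted p = 0.00376, edgeR) and in DMSO at day 21 against day 0 (0.69, adjusted p = 0.0207, edgeR). In that last comparison 4 of the 9 passed with the correction, against 36.7% of all genes. HSPA5 (0.52, adjusted p = 0.0263, edgeR), HSP90B1 (0.67, adjusted p = 0.0351, edgeR) and DNAJB11 (0.63, adjusted p = 0.0462, edgeR) were added, and XBP1 (0.24, adjusted p = 0.0970, edgeR) was lost. HERPUD1 and DNAJB9 then exceeded it in DMSO at day 14 against day 0 (-1.02 and -1.05).

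**Figure D5:**
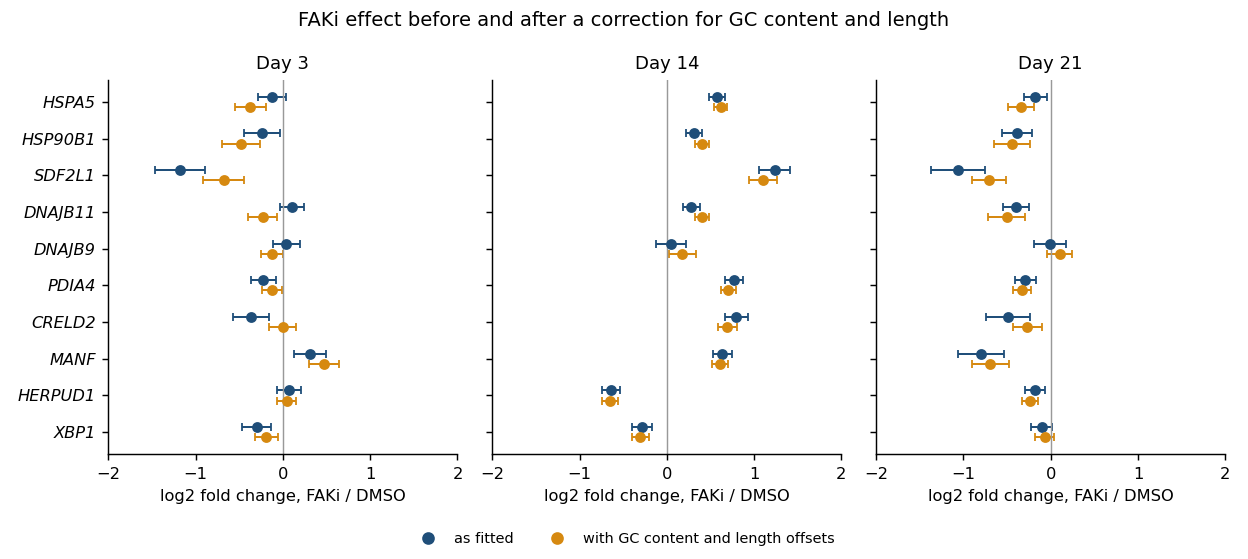
Fitted log2 fold change of FAKi over DMSO (horizontal axis) for the 10 genes at days 3, 14 and 21, as fitted (blue) and with offsets for transcript GC content and length (orange), with whiskers of 1 standard error. SDF2L1 moves from -1.18 to -0.68 at day 3 and from -1.06 to -0.71 at day 21, and at day 14 it is 1.24 as fitted and 1.104 with the offsets.

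The share of counts on mitochondrial genes also varied between groups. This share was lowest in DMSO day 21 replicates 1 and 2, the libraries with the highest SDF2L1. The highest shares were in DMSO day 14 replicates 2 and 3, from the group with the lowest mean SDF2L1. The mitochondrial share was 5.49%, 5.49% and 9.75% in DMSO at day 21 and 10.7% to 11.2% in FAKi at that day. At day 3 it was 18.1%, 9.59% and 8.61% in DMSO and 16.8% to 18.7% in FAKi. At day 14 it was 21.9% to 26.97% in DMSO and 20.7% to 22.1% in FAKi, so the treatments overlapped. The part of this share, and of base composition, in the SDF2L1 differences was not tested.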

How the data were processed

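The data are 27 mRNA libraries of the 92.1 line. The authors trimmed reads with Trim Galore, checked them with FastQC 0.11.8, aligned them to hg38 with STAR 2.5.3a and deposited raw counts, made with HOMER on the exons of 1 transcript per gene (GENCODE 39), without normalization. The library kit was stranded, and the strand setting of the counting is not given in the sources used here. All columns were matched to samples (0 left over), and groups came from the treatment and day in the labels.

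Differences were fitted with edgeR 4.0.16 in R 4.3.3 (TMM, at least 20 counts in total, quasi-likelihood F test, Benjamini-Hochberg adjustment over all genes tested) on the libraries of each comparison. The study's methods used DESeq2, run here as an alternative (1.42.0). Genes were called where the adjusted p was 0.05 or less and the log2 fold change exceeded 1 in size. Standard errors were derived from the F statistic, and 95% intervals are normal. Levels are CPM, with a prior count of 2 in logarithms. Correlations and group ranges carry no test. The precision at the depth given rests on 3 replicates per group. The fits were tested on simulated data.

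The members, gene lists and tests were chosen with earlier results of these data known. All 10 members are named, from each list up to 4 called genes of smallest p per comparison and some beside counts of 5 or fewer, the 10 genes most like SDF2L1 (1 of them is not reported here), and PTK2. CALR and PDIA6 at day 14, VLDLR and PPP1R15A were named after their values were seen.

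Alternatives were DESeq2, RLE scaling, no count filter, all 27 libraries in 1 fit, the adjusted p alone, thinned counts, a replicate block and each library left out. For likeness they were a prior count of 0.5, a mean of at least 10 CPM and RLE scaling, and for promoters the gene strand alone. A loess correction for GC content and length (span 0.5, transcripts of GENCODE 44) and likeness without the 3 libraries that stood apart were added after seeing the data. Replicate numbers were taken to pair the libraries at day 21. There the deviations of same-numbered libraries from their group means had r of 0.443, 0.128 and 0.658 over genes. Not every pair exceeded 0.1 elsewhere.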

Additional observations from a re-analysis of the deposited data

Results flagged for a closer look

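Between day 3 and day 14 the FAKi effect on 4 genes changed by more than the spread between replicates, as tested by the interaction of treatment and day in edgeR (12 libraries, Benjamini-Hochberg adjustment over all genes). The change was 0.71 for HSPA5 (adjusted p = 0.0208), 1.01 for PDIA4 (adjusted p = 0.00329), 1.17 for CRELD2 (adjusted p = 0.00969) and -0.70 for HERPUD1 (adjusted p = 0.0161), all on the log2 scale. Between day 14 and day 21 the same test found a change of -0.77 for HSPA5 (adjusted p = 0.00463), -0.73 for HSP90B1 (adjusted p = 0.0245), -0.70 for DNAJB11 (adjusted p = 0.0179), -1.09 for PDIA4 (adjusted p = 0.000573), -1.32 for CRELD2 (adjusted p = 0.00967) and -1.47 for MANF (adjusted p = 0.00538).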

How the results depend on the processing

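No difference of the 9 genes that had passed the adjusted p changed its sign under the alternatives tried. Some that had not passed did, at days 3, 7, 14 and 21 and in other comparisons. DNAJB9 went from 0.05 to -0.03 at day 14 without FAKi replicate 3. At day 21 it went from -0.01 to 0.20 without DMSO replicate 3. The number of the 9 genes called moved as follows. With the adjusted p alone it was 6 in place of 0 at day 14, 4 in place of 2 for the change from day 3 to day 14, 6 in place of 3 for the change from day 14 to day 21, and 6 and 2 in place of 1 each in DMSO at days 14 and 21 against day 0. DESeq2 gave 1 for the change from day 3 to day 14. The correction for GC content and length, added after seeing the data, gave 1 for that change, which was HSPA5 in place of PDIA4 and CRELD2. It gave 2 for the change from day 14 to day 21, and 3 and 0 in DMSO at days 14 and 21. The cause was not tested. With 1 library left out the count ranged from 0 to 1 at day 21 (1 without DMSO replicate 3), from 0 to 2 for the change from day 3 to day 14 (0 without DMSO day 3 replicate 3, and 1 without FAKi day 3 replicate 2 or 3, DMSO day 14 replicate 2 or FAKi day 14 replicate 1) and from 1 to 2 in DMSO at day 14 (2 without day 0 replicate 2 or day 14 replicate 1).

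The replicate block gave 2076 called genes in place of 1226 at day 21, and 1988 with the GC and length correction, when MANF (-0.65), DNAJB11 (-0.46), PDIA4 (-0.33) and HSP90B1 (-0.41) passed and CRELD2 (-0.24) did not. Where the replicate numbers did not pair the libraries, the block gave 0 called genes in place of 6 at day 7, DNAJB11 no longer passed in DMSO at day 14 (adjusted p = 0.0576, edgeR) and HSPA5 passed in DMSO at day 7 (-0.21, adjusted p = 0.0325, edgeR), and no other call of the 9 changed.

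Called genes over the whole table at day 3 numbered 0, and 745 with DESeq2, 1181 without the count filter, 802 in the 27-library fit, 8 with thinned counts and up to 2765 with a library left out. At day 7 the 6 became 104, 220 and 69 by the first 3 of these and 0 to 248 with a library left out. The 388 of day 14 became 2918 by the adjusted p alone and 632 in the 27-library fit. The 1226 of day 21 became 2692 by the adjusted p alone, 1913 without the filter, 1954 in the 27-library fit and 52 to 4248 with a library left out. The change from day 3 to day 14 had 1104 genes, and 2180 by the adjusted p alone, 515 with the GC and length correction and 550 to 2787 with a library left out. That from day 14 to day 21 had 1922, and 3294 and 1138 to 3812. In DMSO, day 3 had 0, and 24 with DESeq2, 459 without the filter and up to 1439 with a library left out; day 7 had 153, and 88 with DESeq2 and 1081 by the adjusted p alone; day 14 had 1377 and 6418 by the adjusted p alone; day 21 had 5177, and 9986, 3449 with the correction and 3402 to 7999 with a library left out. The members among the 100 genes most like SDF2L1 were 0 in each setting tried, and on the gene strand alone 4 members held either form of the promoter element. With 3 libraries a group, small differences could not be told from replicate spread.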
